A study of Mus musculus with 16 samples.

Results

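Hnf4a and Hnf4g encode HNF4α and HNF4γ, paralogous transcription factors of the nuclear receptor family. HNF4 proteins bind direct repeats of the AGGTCA half-site as dimers, without a hormone partner, and switch on genes of nutrient absorption and lipid handling in gut and liver epithelium. Intestinal epithelium makes both proteins, whereas liver relies mainly on HNF4α. Both paralogs read near-identical DNA motifs, so the level of the remaining paralog is of interest when the other is deleted.

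The members were chosen by gene symbol, and both were found, which makes 2 of the 19964 genes listed at both time points. The data are poly(A) RNA-seq read counts from 16 libraries of jejunal epithelial organoids, which are self-organizing cultures of small-intestinal epithelium in a gel. The mice were C57BL/6 with the genotype Villin-CreERT2; Hnf4aflox/flox. In the 4OHT groups, 4-hydroxytamoxifen, which switches on the recombinase, was given at 0.5 µM over 24 h, after which the cultures were passaged; the DMSO groups received only the solvent. Each treatment was sequenced at day 2 and at day 4, with 4 libraries in each of the 4 groups. DMSO organoids carry the Cre transgene and the floxed alleles too, and no group without Cre or with wild-type Hnf4a was included. The Villin promoter confines Cre to epithelial cells, and Hnf4g carries no engineered allele in any group. The sources used here name neither the floxed exons nor the origin of the replicates. Where replicates are not separate cultures or animals, the p-values cover technical spread alone.

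Library totals ran between 63.8 M and 93.3 M counts, and no library held identical counts to another. Markers of the labelled tissue were abundant: the 12 enterocyte markers summed to 4845 to 12370 counts per 1000000 reads counted (CPM) across the groups. Of 8 mesenchymal markers, Col1a2, Col3a1, Dcn and Lum were not listed, and the summed level of the other 4 ran between 8.04 and 11.5 CPM. Of the immune and endothelial markers, Adgre1, Cdh5 and Kdr were not listed, and the 5 that were listed summed to 2.24 to 3.94 CPM.

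Hnf4a (ENSMUSG00000017950) lies at chr2:163506808-163572910 on the plus strand of GRCm38, and Hnf4g (ENSMUSG00000017688) at chr3:3508030-3658052 on the plus strand. Their coding sequences are alike enough that reads could in principle be assigned to the wrong paralog, so the aligned stretch around their longest shared run is shown, with that run in capitals. The stretch is 137 bases of coding sequence in each gene, read from the GENCODE transcripts Hnf4a-201 and Hnf4g-202, and 101 of its bases are identical:
Hnf4a: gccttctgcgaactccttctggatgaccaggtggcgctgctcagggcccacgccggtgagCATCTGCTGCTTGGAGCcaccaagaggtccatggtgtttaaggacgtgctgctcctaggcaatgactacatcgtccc
Hnf4g: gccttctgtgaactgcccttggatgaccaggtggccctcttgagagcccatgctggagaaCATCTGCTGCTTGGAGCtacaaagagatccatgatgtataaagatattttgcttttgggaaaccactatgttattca
Over the whole coding alignment, 961 of 1352 aligned bases were identical, or 71.1%. The run in capitals is 17 bases long and is the longest that any annotated transcripts of these genes share on the same strand. No stretch of 25 bases was shared, so a read that matches one paralog along its length does not match the other equally well.

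Hnf4a has a pair of start regions, usually called P2 (upstream) and P1 (downstream), whose starts are 40298 bases apart. HNF1 factors are known to act at P1, so the RefSeq window from 250 bases before to 50 bases after that start is shown (chr2:163546905-163547204, plus strand, GRCm38.p6). Capitals mark matches to GTTAAT, the core of the HNF1 site, both on the minus strand, where they read ATTAAC in the printed strand:
Hnf4a P1: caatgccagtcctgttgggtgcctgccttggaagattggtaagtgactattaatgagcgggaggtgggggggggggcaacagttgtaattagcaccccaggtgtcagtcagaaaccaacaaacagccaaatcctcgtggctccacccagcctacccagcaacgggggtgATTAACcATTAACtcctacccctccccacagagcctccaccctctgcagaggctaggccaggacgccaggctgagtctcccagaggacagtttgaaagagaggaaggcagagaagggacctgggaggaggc
The matches begin 81 and 74 bases before the start. On either strand, GTTAAT was found in 7.1% of 32851 promoter windows of this length. The letters CAAAGTCCA (in 0.475% of windows) and CAAAGGTCA (0.478%), which are HNF4-type elements, were not in this window, searched on both strands. A count per gene does not say from which start the RNA was made.

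The deletion was the first comparison. Hnf4a was about halved in 4OHT organoids at both time points, and every 4OHT library lay below every DMSO library. At day 2, the Hnf4a level was 509.7, 516.6, 500.8 and 476.2 CPM in the 4OHT libraries, against 978.4, 1030, 1038 and 984.7 CPM in the DMSO libraries. At day 4, it was 478.1, 502.5, 468.0 and 447.7 CPM in 4OHT libraries, against 978.9, 1008, 987.2 and 980.1 CPM in DMSO libraries. The groups were thus tight and far apart, and the residual level in 4OHT was 49.7% of DMSO at day 2 and 47.95% at day 4.

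The log2 fold change of Hnf4a, 4OHT over DMSO, was -0.99 ± 0.05 (SE, n = 4 libraries a group) at day 2, with an edgeR quasi-likelihood, Benjamini-Hochberg adjusted p of 8.25e-08. At day 4 it was -1.04 ± 0.05 (SE, edgeR adjusted p = 1.14e-06). For scale, 31.1% of 15897 genes passed the adjusted threshold of 0.05 at day 2 and 24.7% of 16040 at day 4. The difference between the days was -0.04 ± 0.06 on the log2 scale (edgeR interaction, adjusted p = 0.77), where 1.68% of 16597 genes passed. A gene-level count adds the reads of all exons, including any outside the floxed stretch, and in a bulk sample fewer cells that make a transcript and less RNA per cell cannot be told apart. The residual Hnf4a count therefore gives neither the share of recombined cells nor the level in a recombined cell.

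Hnf4g, the intact paralog, passed the test at day 4 and not at day 2. At day 4 it was higher in 4OHT organoids, at 270 ± 10 CPM, against 192 ± 15 CPM in DMSO organoids (SD, n = 4 each), and the groups did not overlap. At day 2 it was 255 ± 23 CPM in 4OHT and 223 ± 34 CPM in DMSO organoids (SD, n = 4 each), and that difference did not pass the test.

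At day 2, the Hnf4g level was 283.8, 262.7, 238.8 and 233.9 CPM in the 4OHT libraries, against 194.1, 206.1, 270.5 and 222.9 CPM in the DMSO libraries. The groups overlapped through a single DMSO library, replicate 3, which lay above 3 of 4 libraries given 4OHT; the other 3 DMSO libraries lay below all 4OHT libraries. The log2 fold change was 0.21 ± 0.10 (SE), with a 95% interval of -0.01 to 0.42 and an edgeR adjusted p of 0.131. Without DMSO replicate 3 it was 0.31 with an edgeR adjusted p of 0.0107, and leaving out any other library of day 2 gave no call, with adjusted p up to 0.377. DMSO replicate 3 also had the highest summed enterocyte markers of its group, 8820 CPM against 6803 to 8031 CPM in the other 3, and the part of these markers in the Hnf4g level was not tested.

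At day 4, the Hnf4g level was 260.9, 284.4, 269.3 and 266.1 CPM in the 4OHT libraries, against 180.6, 213.5, 185.2 and 187.6 CPM in the DMSO libraries. Replicate 2 was the highest library of each group, and the lowest 4OHT library was well above the highest DMSO library. The log2 fold change was 0.51 ± 0.06 (SE), with a 95% interval of 0.39 to 0.64, which is 1.43-fold, and an edgeR adjusted p of 0.000235. The call held without each library in turn, with edgeR adjusted p between 0.00017 and 0.00149. The summed enterocyte markers overlapped between the groups at day 4, at 8906 to 12370 CPM in 4OHT and 9793 to 10680 CPM in DMSO libraries. Other marker sums did not overlap at day 4: goblet cell markers were at 6554 to 8829 CPM in 4OHT and 3477 to 4747 CPM in DMSO libraries, and crypt base and proliferation markers at 2772 to 3377 CPM in 4OHT and 4198 to 4474 CPM in DMSO libraries. Their part in the Hnf4g level was not tested.

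In the authors' deposited tables, Hnf4g had a log2 fold change of 0.198 at day 2, with an edgeR adjusted p of 0.11 and a DESeq adjusted p of 0.33. In the authors' deposited table for day 4 it was 0.503, with 1.9e-09 by edgeR and 3.3e-07 by DESeq. The calls of both tools thus fell on the same side at each day as those given above.

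**Figure D1:**
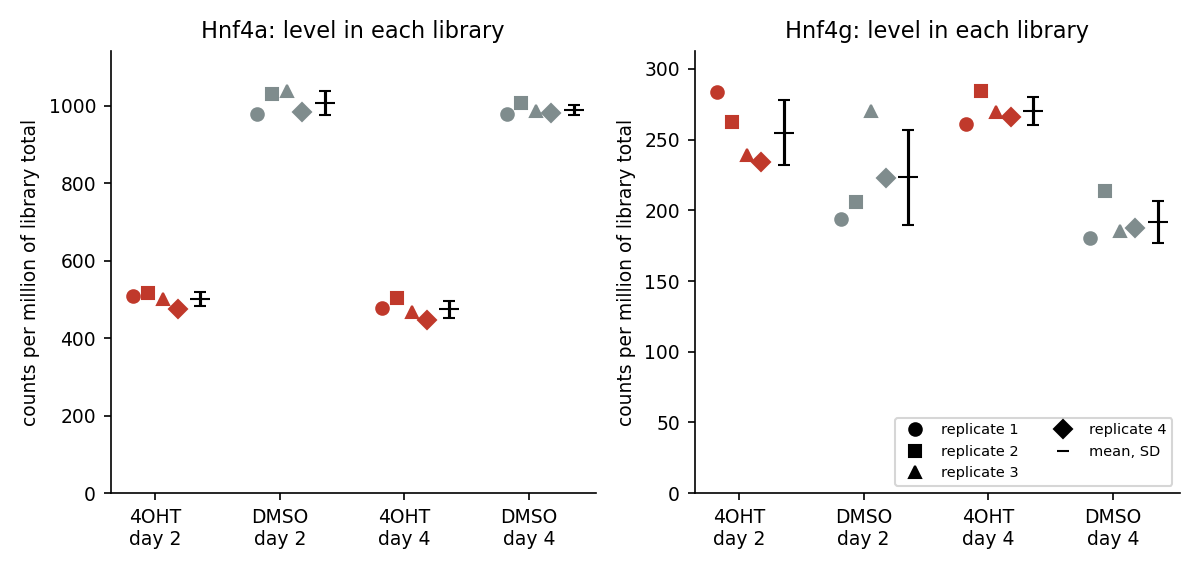
Level of Hnf4a (left) and Hnf4g (right) in each library, in CPM by library total, for 4OHT and DMSO organoids at days 2 and 4. Symbols are replicate numbers, and bars are the mean and SD of 4 libraries. Hnf4a falls into separate bands near 500 and 1000 CPM at both days, whereas the Hnf4g groups overlap at day 2 through DMSO replicate 3 and are separate at day 4.

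Hnf4g counts rested on 11936 to 23254 reads per library, which gives a counting error of 0.686 to 0.816% at the group means. The spread between replicates was larger, with a coefficient of variation of 9.05% in 4OHT and 15.0% in DMSO libraries at day 2, and 3.75% in 4OHT and 7.73% in DMSO libraries at day 4. For Hnf4a the same spread was 3.52% in 4OHT and 3.03% in DMSO at day 2, and 4.81% in 4OHT and 1.38% in DMSO at day 4. The counting error takes each read as a separate count, since reads carry no molecular identifiers, and leaves out the spread between replicates.

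Levels were then compared over the days within each treatment. In 4OHT organoids, Hnf4g at day 4 over day 2 had a log2 fold change of 0.05 ± 0.07 (SE, edgeR adjusted p = 0.545), with a 95% interval of -0.09 to 0.20. In DMSO organoids Hnf4g was lower at day 4 than at day 2, with a log2 fold change of -0.26 ± 0.09 (SE, edgeR adjusted p = 0.0291). That call was lost, at edgeR adjusted p between 0.0501 and 0.0775, without DMSO day 4 replicate 1, 3 or 4, and at 0.0663 when libraries were scaled by their totals alone. Changes over days were common: 49.4% of 15962 genes passed in 4OHT and 53.5% of 16088 in DMSO organoids. The difference of the treatment effects between days was 0.31 ± 0.12 for Hnf4g on the log2 scale (SE; edgeR quasi-likelihood interaction, adjusted p = 0.179), so an effect that differs between day 4 and day 2 was not established.

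Hnf4a itself moved little over the days. Its log2 fold change, day 4 over day 2, was -0.11 ± 0.05 in 4OHT (SE, edgeR adjusted p = 0.0917) and -0.06 ± 0.05 in DMSO organoids (SE, edgeR adjusted p = 0.312). In 4OHT the call turned with the tool and with the libraries fitted. DESeq2 gave -0.12 with an adjusted p of 0.0347. An edgeR fit of all 16 libraries gave -0.12 with an adjusted p of 0.0325.

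Levels of the paralogs can be set side by side only per length, because the exons of Hnf4a cover 4828 bases and those of Hnf4g 2630 bases. Per kb of exon, Hnf4a was the major paralog in DMSO organoids, and in 4OHT organoids the levels were close to each other. At day 2, the Hnf4a level averaged 104 ± 4 CPM per kb in 4OHT and 209 ± 6 CPM per kb in DMSO libraries, and the Hnf4g level 96.9 ± 8.8 CPM per kb in 4OHT and 84.9 ± 12.8 CPM per kb in DMSO libraries (SD, n = 4 each). At day 4, the Hnf4a level averaged 98.2 ± 4.7 CPM per kb in 4OHT and 205 ± 3 CPM per kb in DMSO libraries, and the Hnf4g level 103 ± 4 CPM per kb in 4OHT and 72.9 ± 5.6 CPM per kb in DMSO libraries (SD, n = 4 each). Hnf4g exceeded Hnf4a per kb in 1 of 4 libraries of 4OHT organoids at day 2 and in 4 of 4 at day 4, and in 0 of 4 DMSO libraries at either day. With the length of the longest transcript in place of all exons, the ratio of Hnf4g to Hnf4a was 0.953 in 4OHT and 0.415 in DMSO libraries at day 2, and 1.07 in 4OHT and 0.363 in DMSO libraries at day 4.

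The ratio of the paralogs within a library needs no scaling between libraries. The ratio of Hnf4g to Hnf4a counts was 0.557, 0.509, 0.477 and 0.491 in 4OHT libraries at day 2, against 0.198, 0.200, 0.261 and 0.226 in DMSO libraries. At day 4 it was 0.546, 0.566, 0.575 and 0.594 in 4OHT libraries, against 0.185, 0.212, 0.188 and 0.191 in DMSO libraries. The groups were separate at both days, including DMSO day 2 replicate 3. Hnf4a, the deleted gene, is the denominator, so its loss alone raises the ratio. A higher ratio is thus no test of Hnf4g. The ratio was 2.31-fold higher in 4OHT at day 2 and 2.95-fold higher at day 4, or 1.21 ± 0.10 and 1.56 ± 0.05 on the log2 scale (SE). A two-sided exact permutation test gave p = 0.0286 at each day, which is the smallest p that 4 libraries against 4 can give, and it stayed at 0.0286 after Benjamini-Hochberg adjustment over 4 such tests.

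Adding the paralogs per kb gives a summed level of reads counted to HNF4 genes. The Hnf4a part may include reads of exons outside the floxed stretch, so the sum does not give the intact HNF4 transcripts left. The sum was 213.5, 206.9, 194.5 and 187.6 CPM per kb in 4OHT libraries at day 2, against 276.5, 291.6, 317.9 and 288.7 CPM per kb in DMSO libraries. At day 4 it was 198.2, 212.2, 199.3 and 193.9 CPM per kb in 4OHT libraries, against 271.4, 290.0, 274.9 and 274.3 CPM per kb in DMSO libraries. The summed level in 4OHT organoids was therefore 68.3% of DMSO at day 2 and 72.4% at day 4, without overlap (log2 difference -0.55 ± 0.06 and -0.47 ± 0.04, SE; exact permutation p = 0.0286 at each day, adjusted 0.0286). The loss of Hnf4a lowers the sum unless Hnf4g makes up for it, so a lower sum is no test of Hnf4g either.

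Hnf4g was a larger part of the sum in 4OHT organoids. The loss of Hnf4a alone raises that part, so it is no test of Hnf4g. Hnf4g made up 48.2 ± 1.7% of the sum in 4OHT and 28.8 ± 2.6% in DMSO libraries at day 2, and 51.1 ± 0.9% in 4OHT and 26.2 ± 1.2% in DMSO libraries at day 4 (SD, n = 4 each). Between the group means, the excess of Hnf4g in 4OHT was 11.9 CPM per kb at day 2, beside a deficit of Hnf4a of 105.0 CPM per kb. At day 4 the excess was 29.8 CPM per kb beside a deficit of 106.6 CPM per kb. The excess of Hnf4g thus equalled 11.4% of the Hnf4a deficit at day 2, where it did not pass the test, and 28.0% at day 4. These are shares of counted reads, and the deficit of intact Hnf4a transcript is not known.

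**Figure D2:**
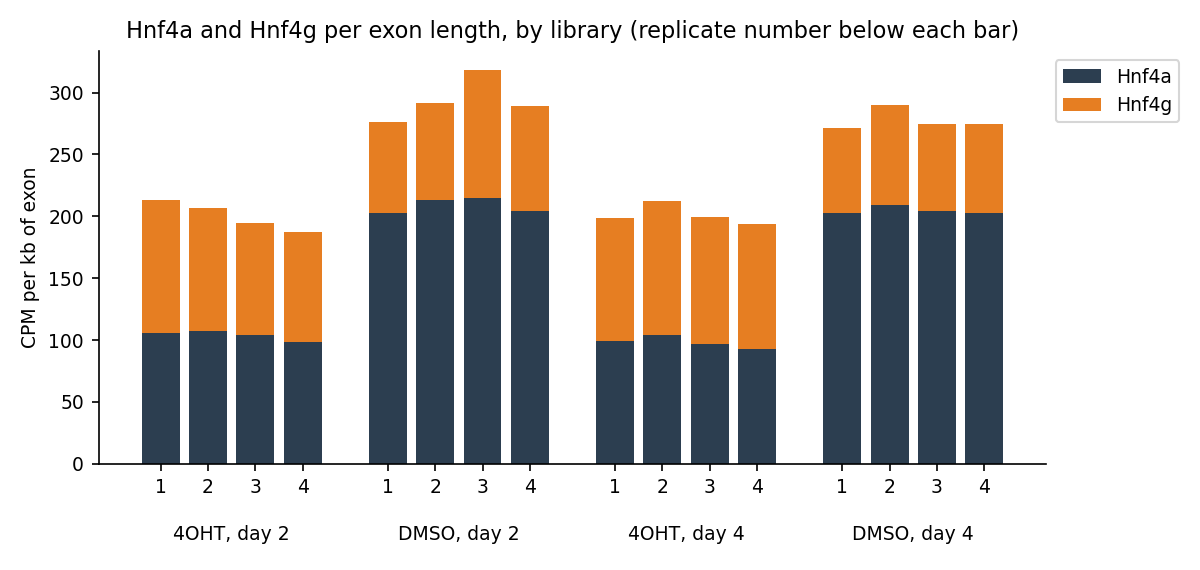
Hnf4a and Hnf4g levels stacked for each of the 16 libraries, in CPM per kb of exon, with replicate numbers below the bars. The 4OHT bars reach 187.6 to 213.5 and the DMSO bars 271.4 to 317.9, and Hnf4g takes a larger part of each 4OHT bar. The loss of Hnf4a alone raises that part.

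Among nuclear receptors, a family of ligand-regulated and orphan factors, both paralogs led the order of levels in 4OHT organoids. Of 42 receptors measured at day 2, Hnf4a was the highest per kb in 4OHT libraries, followed by Hnf4g and by Vdr, the vitamin D receptor, at 64.8 ± 9.2 CPM per kb (SD, n = 4). Hnf4a at 98.6 to 107.0 and Hnf4g at 88.9 to 107.9 CPM per kb overlapped, and Vdr lay below both. In DMSO libraries at day 2 the order was Hnf4a, then Vdr at 89.5 ± 6.0 and Hnf4g at 84.9 ± 12.8 CPM per kb, whose ranges overlapped. Of 41 receptors measured at day 4, the order in 4OHT libraries was Hnf4g, Hnf4a and Vdr at 86.0 ± 10.1 CPM per kb, and each overlapped its neighbour. In DMSO libraries at day 4 Hnf4a led, with Vdr at 96.4 ± 9.4 CPM per kb above Hnf4g and no overlap between any of these neighbours. Esrra, the estrogen-related receptor alpha, came next in every group, at 46.1 to 51.5 CPM per kb.

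The receptors other than HNF4 moved in both directions. At day 2, 5 of 34 tested receptors rose and 11 fell, where 16.9% of all genes rose and 14.3% fell, and their median log2 fold change was -0.14, beside -0.003 for all genes. Without DMSO day 2 replicate 4, 17 fell. At day 4, 5 of 35 rose and 6 fell, beside 13.7% and 11.1% of all genes, with a median of -0.07 beside -0.007. With replicate number as a block, which paired the libraries at day 4, 13 receptors fell at day 4, where 22.2% of all genes fell and 22.8% rose.

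The 5 that rose were Nr1h4, Nr4a1, Ppard, Pparg and Rarg at each day. Rarg, the retinoic acid receptor gamma, was at 44.3 ± 2.6 CPM in 4OHT and 23.7 ± 0.6 CPM in DMSO libraries at day 2 (SD, n = 4 each; log2 0.92 ± 0.05, edgeR adjusted p = 1.36e-07), and rose at day 4 too (log2 0.80 ± 0.17, edgeR adjusted p = 0.0064). Pparg and Ppard, which sense fatty acids, had log2 fold changes of 0.69 ± 0.05 and 0.40 ± 0.04 at day 2, and of 0.66 ± 0.14 and 0.39 ± 0.05 at day 4 (edgeR adjusted p of 0.00603 or less). Nr4a1, an immediate-early orphan receptor, had 0.56 ± 0.08 at day 2 and 0.50 ± 0.10 at day 4 (edgeR adjusted p of 0.00373 or less).

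Of the receptors that fell, Esrrg, the estrogen-related receptor gamma, and Nr2e3, a photoreceptor factor, had the lowest log2 fold changes among those named, and both were scarce. Esrrg was at 2.29 ± 0.34 CPM in 4OHT and 4.04 ± 0.68 CPM in DMSO libraries at day 2, and at 9.38 ± 1.76 CPM in 4OHT and 17.0 ± 0.6 CPM in DMSO libraries at day 4 (SD, n = 4 each; edgeR adjusted p of 0.000844 or less). Nr2e3 was at 1.17 ± 0.18 CPM in 4OHT and 2.36 ± 0.12 CPM in DMSO libraries at day 2, and at 5.90 ± 1.01 CPM in 4OHT and 9.86 ± 1.82 CPM in DMSO libraries at day 4 (SD, n = 4 each; edgeR adjusted p of 0.00666 or less). Vdr fell at day 2 (log2 -0.45 ± 0.10, edgeR adjusted p = 0.00408) and had -0.15 ± 0.09 at day 4 (edgeR adjusted p = 0.27).

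HNF4 belongs to the NR2 subfamily, as does Nr2e3, which fell at both days as given above. The other tested members of the subfamily showed small differences. The retinoid X receptors Rxra and Rxrb, dimer partners of many receptors but not of HNF4, fell at day 2 by 0.25 ± 0.06 and 0.19 ± 0.05 on the log2 scale (edgeR adjusted p = 0.00684 and 0.0103). At day 4 their log2 fold changes were -0.11 and -0.07 (edgeR adjusted p = 0.0798 and 0.251). Nr2f2 (COUP-TFII), which can compete with HNF4 for sites, fell by 0.22 ± 0.05 at day 4 (edgeR adjusted p = 0.0151) and by 0.20 ± 0.05 at day 2 (edgeR adjusted p = 0.0177), a call that was at 0.0512 without 4OHT day 2 replicate 2. Nr2c1 and Nr2c2, the testicular receptors, passed at neither day, with log2 fold changes between -0.12 and 0.08. Nr2f6 had -0.11 ± 0.04 at day 2, at edgeR adjusted p = 0.0482 and up to 0.111 without DMSO day 2 replicate 2, and -0.01 ± 0.05 at day 4. The number of receptors called for a difference of the treatment effect between the days depended on the block. Without it, edgeR called 0 of 35 at an adjusted p of 0.05 and 6 at an unadjusted p of 0.05, and DESeq2 called 0. With replicate number within day as a block, edgeR called 4, which were Esrra, Vdr and the xenobiotic receptors Nr1i2 and Nr1i3. Their log2 fold changes were higher at day 4 than at day 2, by 0.22 to 0.51 (edgeR adjusted p of 0.021 or less). In the main fits Vdr and Nr1i3 went from -0.45 and -0.52 at day 2 to -0.15 and -0.02 at day 4. Esrra and Nr1i2 went from -0.14 and -0.20 to 0.08 and 0.05. In the blocked fit 11.1% of all genes passed, a share close to that of the receptors, so this is read as no result about receptors.

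**Figure D3:**
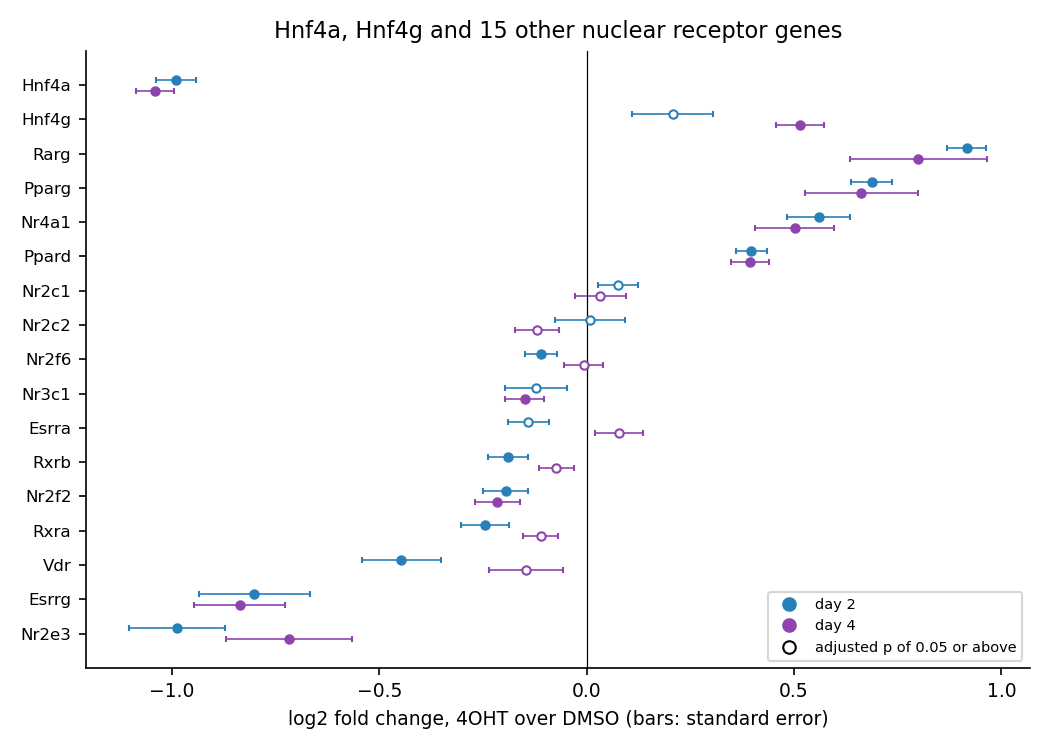
Log2 fold changes, 4OHT over DMSO, of Hnf4a, Hnf4g and 15 other nuclear receptor genes at day 2 and day 4, with standard errors. Filled points have an edgeR adjusted p under 0.05. Hnf4a lies near -1 at both days, Hnf4g is open at 0.21 for day 2 and filled at 0.51 for day 4, and Nr2e3 and Esrrg lie between -0.72 and -0.99.

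Factors that work beside HNF4 in the intestine were measured next. Of 21 intestinal transcription factors, 4 rose and 3 fell at day 2, and 5 rose and 3 fell at day 4, beside the shares of all genes given above. The forkhead factors went apart: Foxa1 was at 88.7 ± 9.0 CPM in 4OHT and 57.6 ± 4.3 CPM in DMSO libraries at day 2 (SD, n = 4 each; log2 0.64 ± 0.07, edgeR adjusted p = 2.73e-05) and had a log2 fold change of 0.50 ± 0.07 at day 4 (edgeR adjusted p = 0.000713). Foxa2 fell, by 0.22 ± 0.05 at day 2 and by 0.31 ± 0.06 at day 4 on the log2 scale (edgeR adjusted p = 0.00568 and 0.00325). The Krüppel-like factors Klf4 and Klf5 rose at day 2, with log2 fold changes of 0.34 ± 0.05 and 0.21 ± 0.05 (edgeR adjusted p = 0.000437 and 0.00576). Their day 4 calls, at 0.0217 and 0.0368, were lost without single libraries, at adjusted p up to 0.0656 for Klf4 and 0.105 for Klf5, both without DMSO day 4 replicate 4. Cdx1 and Isx, epithelial homeobox factors, and the ETS factor Elf3 passed at neither day, with log2 fold changes between -0.15 and 0.13.

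The count of factors that rose at day 4 was unstable. It was 1 to 6 when 1 library was left out, with 1 without DMSO day 4 replicate 4, 2 without 4OHT replicate 1 or DMSO replicate 1 or 3, and 3 without 4OHT replicate 2 or 3. The count that fell was 1 without 4OHT replicate 1 or 3 or DMSO replicate 1, 2 or 3. With the replicate block, 8 of the 21 rose and 6 fell at day 4, where 22.8% and 22.2% of all genes did.

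Coregulators, the cofactors that HNF4 is known to recruit, were read next. Of 18, 3 rose and 1 fell at day 2, where 16.9% of all genes rose and 14.3% fell, and 2 rose and 1 fell at day 4, where 13.7% rose and 11.1% fell. At day 2, 1 rose without 4OHT replicate 1, 3 or 4, and 0 fell without 4OHT replicate 2, 3 or 4 or DMSO replicate 2 or 3. At day 4, 2 fell without 4OHT replicate 2. Ncoa3, a p160 coactivator, had a log2 fold change of 0.43 ± 0.07 at day 2 and 0.24 ± 0.05 at day 4 (edgeR adjusted p = 0.000526 and 0.00481). Sirt1, a deacetylase, fell by 0.32 ± 0.07 at day 4 (edgeR adjusted p = 0.00946); at day 2 it had -0.18 ± 0.06 (edgeR adjusted p = 0.0291, and up to 0.0695 without 4OHT day 2 replicate 3). Src, a kinase that phosphorylates HNF4α, had a log2 fold change of 0.17 ± 0.04 at day 4 (edgeR adjusted p = 0.0133) and 0.11 ± 0.04 at day 2 (0.0434, and up to 0.143 without DMSO day 2 replicate 4). The acetyltransferase Ep300, the corepressor Ncor1 and Hdac3 passed at neither day, with log2 fold changes between -0.06 and 0.15. With the replicate block, 5 of the 18 fell at day 4, where 22.2% of all genes fell.

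Genes known from earlier work as HNF4 targets, 43 in all, gave unlike counts at the days. At day 2, 22 fell and 2 rose, with a median log2 fold change of -0.29. At day 4, 4 fell and 10 rose, with a median of 0.07. Over all genes, 14.3% fell and 16.9% rose at day 2, and 11.1% fell and 13.7% rose at day 4. At day 2, 14 fell without DMSO replicate 1, and 1 rose without 4OHT replicate 1, 2 or 3 or DMSO replicate 1, 2 or 4. At day 4, 16 rose with the replicate block, where 22.8% of all genes did.

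A few targets were low at both days. Cps1, the first enzyme of the urea cycle, was at 308 ± 25 CPM in 4OHT and 999.7 ± 58.9 CPM in DMSO libraries at day 2, and at 760 ± 127 CPM in 4OHT and 2240 ± 55 CPM in DMSO libraries at day 4 (SD, n = 4 each). These are log2 fold changes of -1.68 ± 0.07 and -1.54 ± 0.10 (edgeR adjusted p = 2.04e-08 and 1.11e-05). Ttr, the thyroxine carrier transthyretin, had -1.65 ± 0.14 at day 2 and -1.87 ± 0.12 at day 4 (edgeR adjusted p = 3.83e-06 and 8.23e-06). The other targets that fell at day 4 were Cldn15 and Otc, which also fell at day 2.

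Other targets passed at day 2 and not at day 4. Lct, lactase, was at 6.75 ± 1.247 CPM in 4OHT and 16.8 ± 3.6 CPM in DMSO libraries at day 2 (SD, n = 4 each; log2 -1.30 ± 0.16, edgeR adjusted p = 8.35e-05), and had -0.55 ± 0.26 at day 4 (edgeR adjusted p = 0.165). Sis, sucrase-isomaltase, and Apoa1, an apolipoprotein of high-density lipoprotein, had -0.52 ± 0.14 and -0.46 ± 0.13 at day 2 (edgeR adjusted p = 0.0124 and 0.0179). Without DMSO day 2 replicate 1 these were at adjusted p of 0.0755 for Sis and 0.113 for Apoa1. At day 4 Sis had -0.01 ± 0.11 and Apoa1 0.23 ± 0.10, neither passing. The difference between the days did not pass for Lct, Sis or Apoa1 (edgeR interaction, adjusted p = 0.301, 0.166 and 0.0634). Alpi, intestinal alkaline phosphatase, rose at day 4, to 238 ± 28 CPM in 4OHT, against 126 ± 13 CPM in DMSO libraries (SD, n = 4 each; log2 0.94 ± 0.10, edgeR adjusted p = 0.000151).

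Of the 43 targets, 5 passed the edgeR interaction test, Alpi, Cdhr2, Cdhr5, Cyp3a13 and Ugt1a1. All had a higher log2 fold change at day 4 than at day 2, beside 1.20% of all genes in that direction. Only Cyp3a13 kept its call without each of the 16 libraries in turn. The call was lost in 10 leave-outs for Alpi and Ugt1a1, 11 for Cdhr5 and 12 for Cdhr2. The median difference over the list was 0.36, beside 0.006 for all genes. The exons of Ugt1a1 are partly shared with other Ugt1a genes, so its count is uncertain.

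**Figure D4:**
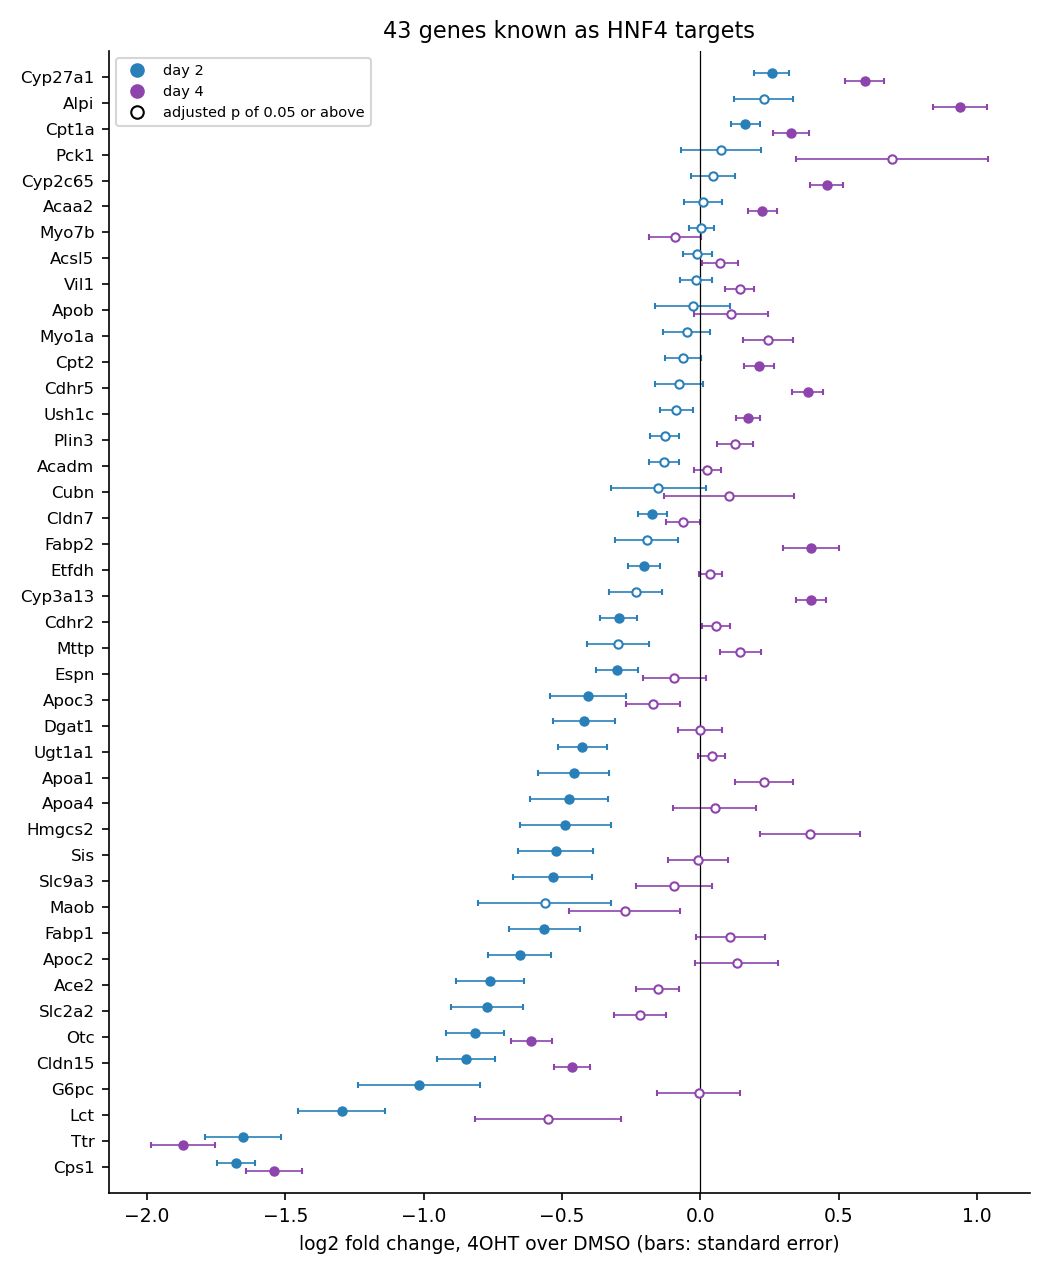
Log2 fold changes, 4OHT over DMSO, of 43 genes known as HNF4 targets, ordered by the value at day 2, with standard errors. Filled points have an edgeR adjusted p under 0.05. Most day 2 points lie left of 0 and most day 4 points to the right of their day 2 point, with Cps1 and Ttr below -1.5 at both days.

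Of the 43 targets, 9 are also enterocyte markers, and other cell type markers moved with the treatment as well. These counts stand beside 16.9% of all genes that rose and 14.3% that fell at day 2, and 13.7% that rose and 11.1% that fell at day 4. Of 12 enterocyte markers 9 fell at day 2, with a summed level of 4845 to 6682 CPM in 4OHT and 6803 to 8820 CPM in DMSO libraries, and 3 fell without DMSO day 2 replicate 1. At day 4, 2 rose and 1 fell, 1 rose without DMSO day 4 replicate 1, and 4 rose without 4OHT day 4 replicate 4. Of 8 goblet cell markers 6 rose at each day, with sums of 6922 to 8887 CPM in 4OHT and 4500 to 5161 CPM in DMSO libraries at day 2, and of 6554 to 8829 CPM in 4OHT and 3477 to 4747 CPM in DMSO libraries at day 4. Of 10 crypt base and proliferation markers 7 fell at day 2 and 9 at day 4, with sums of 1526 to 1669 CPM in 4OHT and 2010 to 2295 CPM in DMSO libraries at day 2, and of 2772 to 3377 CPM in 4OHT and 4198 to 4474 CPM in DMSO libraries at day 4. Of 8 Paneth cell markers 5 fell at day 2 and 4 at day 4. The part of these markers in the levels of the targets was not tested.

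Counts in the remaining marker lists were small and are read as no result about those lists, given the shares of all genes above. Of these, 1 of 8 enteroendocrine genes fell at day 2 (Neurod1) and 1 rose at day 4 (Tac1). Of 7 tested tuft cell genes 2 rose at day 2 (Avil and Gnat3) and 1 at day 4 (Avil). Col1a1, a collagen of mesenchymal cells, rose at both days and was at most at 0.235 CPM in any library, and Itgam fell at day 2. The enteroendocrine counts, and the tuft and mesenchymal counts at day 4, were 0 when some single libraries were left out.

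The genes whose levels followed each member most closely over the 16 libraries differed between the paralogs. Likeness was the root mean square difference of log2 CPM centred on each gene's mean, among 9348 genes with a mean log2 CPM of at least 3, and is a description with no test. For Hnf4a, the closest were Zc3h12d at 0.199, Ckb, Tstd1, Snph and Slc39a5 at 0.228, where the median gene was at 0.533. Ckb, brain-type creatine kinase, was at 110 CPM in 4OHT and 215 CPM in DMSO libraries at day 2, and at 112 CPM in 4OHT and 185 CPM in DMSO libraries at day 4, as group means. For Hnf4g, the closest were Slc10a5 at 0.096, Ell2, Aldh3a2, Dock6 and Cflar at 0.117, where the median gene was at 0.279. Aldh3a2, a fatty aldehyde dehydrogenase, was at 291 CPM in 4OHT and 275 CPM in DMSO libraries at day 2, and at 322 CPM in 4OHT and 242 CPM in DMSO libraries at day 4, as group means. Hnf4a and Hnf4g were at 0.704 from each other.

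The genes near each member were also read. Hnf4aos, an antisense gene on the minus strand at chr2:163493807-163541720, overlaps Hnf4a, and because the strand setting of the counting is not given in the sources used here, its reads and those of Hnf4a cannot be fully told apart. The counts assigned to Hnf4aos were 0.0451 to 0.158% of those of Hnf4a. Hnf4aos was at 0.363 ± 0.102 CPM in 4OHT and 0.592 ± 0.106 CPM in DMSO libraries at day 2 (SD, n = 4 each; log2 -0.70 ± 0.22, edgeR adjusted p = 0.032, and up to 0.0888 without 4OHT day 2 replicate 4), and had -0.20 ± 0.20 at day 4 (edgeR adjusted p = 0.51).

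Within 250 kb of Hnf4a, 13 of 17 annotated genes were listed. R3hdml, which ends 4196 bases before Hnf4a, was higher in 4OHT organoids, at 8.86 CPM against 6.07 CPM in DMSO at day 2 and 7.34 CPM against 3.49 CPM in DMSO at day 4, as group means (log2 0.56 ± 0.07 and 1.10 ± 0.16, edgeR adjusted p = 7.52e-05 and 0.000987). Pkig, a protein kinase A inhibitor, fell by 0.62 ± 0.06 and by 0.56 ± 0.11 on the log2 scale at days 2 and 4 (edgeR adjusted p = 6.83e-06 and 0.00509). Serinc3, Ada and Oser1 passed at day 2 and not at day 4, with day 2 log2 fold changes of -0.30, -0.35 and -0.22 (edgeR adjusted p of 0.00658 or less). Ttpal and Fitm2 passed at neither day. Within 250 kb of Hnf4g, 1 of 5 annotated genes was listed, the pseudogene Rps24-ps2, at 0.152 to 0.228 CPM in the group means and not called.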

How the data were processed

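Libraries of poly(A) RNA from 16 mouse jejunal organoid samples were made with a directional kit (250 ng of input), per the labels' protocols. The submitters' processing notes name bcl2fastq 1.8.4, STAR 2.4.0f1 and the build GRCm38. How reads were counted, with which annotation and strand setting, is not given in the sources used here. The authors deposited 1 table per day with whole-number read counts per gene and, per the file headers, a normalized score per library, a log2 fold change and adjusted p-values from edgeR and DESeq. There were 20790 genes for day 2 and 20658 for day 4, and no gene has fewer than 10 counts over the 8 libraries of a table.

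CPM is the count divided by the library's total count, times 1000000; CPM per kb divides it by the union of exons in GENCODE M21 (GRCm38, 20670 and 20542 gene IDs matched). Counts were tested with edgeR 4.0.16 (in R 4.3.3), as robust quasi-likelihood fits with TMM scaling and filterByExpr (Benjamini-Hochberg over all genes tested, adjusted p below 0.05), on the 8 libraries of a day, the 8 of a treatment for changes over days, and all 16 for the interaction. Fold changes are from these fits, and standard errors from their F statistics. Ratios and sums were tested with an exact permutation test over 70 splits (SciPy 1.17.1). Treatment and day were taken from the labels, and replicate numbers from the titles. Deviations of same-numbered 4OHT and DMSO libraries correlated at 0.63 to 0.81 over 9690 genes at day 4 and at -0.11 to 0.47 at day 2. Numbers were therefore taken to pair libraries at day 4, but only the replicate block uses this. The main fits and the permutation tests leave the pairing out. At day 4 edgeR called 7216 genes with the block and 3967 without it. Genes given as not passing at day 4 in the main fit may therefore pass with the block. Alternatives were DESeq2 1.42.0 and its size factors, library totals alone, other filters, an adjusted p below 0.01, a fit of all libraries, the replicate block and leaving out each library. The tests were tested on simulated counts with known fold changes. False calls were 14 of 165 calls at day 2, 7 of 137 at day 4 and 7 of 128 for the interaction. A 1.25-fold change was recovered for 42% of such genes at day 2, 26% at day 4 and 8% for the interaction. A small change can therefore go uncalled. Far fewer genes were changed in the simulation than were called in the data at day 2 or day 4, and no pairing was simulated. The rates of recovery and of false calls may therefore differ in the data. The 2 columns of unadjusted p-values in each table were not used.

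The members, gene lists and tests were chosen with earlier results of these data known. Named genes are both members and, the 3 smallest p-values and the 3 highest levels of each list at either day, every tested receptor of the NR2 subfamily, the 5 closest genes by likeness, and genes within 250 kb. Others (Cldn15, Otc, Nr1h4, Itgam, Nr1i2, Nr1i3, Cdhr2, Cdhr5, Cyp3a13 and Ugt1a1) are named because a small count fell on them, after their values were seen.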

Additional observations from a re-analysis of the deposited data

Results flagged for a closer look

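No library of either member, of Hnf4aos, of the count ratio or of the HNF4 sum stood apart within its group by Dixon's test (20 groups, critical value 0.829). For 9 genes of the lists, the treatment effect at day 4 minus that at day 2 passed the edgeR interaction test, with 1.68% of all genes called. Among HNF4 targets the log2 differences were 0.72 for Alpi (edgeR adjusted p = 0.0319), 0.64 for the cytochrome P450 gene Cyp3a13 (0.0121), 0.47 for the bilirubin-conjugating Ugt1a1 (0.0339), and 0.36 and 0.47 for the microvillar cadherins Cdhr2 (0.0438) and Cdhr5 (0.0402). Among cell type markers they were 0.84 for the goblet gene Clca1 (edgeR adjusted p = 9.47e-05), 0.80 for Zg16 (0.0103), 0.44 for Agr2 (0.0368) and 0.39 for the crypt gene Smoc2 (0.0109). All 9 were positive, a direction taken by 199 of the 278 genes called among all genes. Each of the 9 log2 fold changes was thus higher at day 4, which is not always a larger effect. Clca1, Zg16, Agr2 and Alpi had larger positive values at day 4 than at day 2. Smoc2 fell less, at -0.58 at day 2 and -0.20 at day 4. Ugt1a1 and Cdhr2 went from -0.43 and -0.295 at day 2 to 0.04 and 0.06 at day 4. Cyp3a13 and Cdhr5 went from -0.23 and -0.08 to 0.40 and 0.39. Clca1, Zg16, Smoc2 and Cyp3a13 passed without each of the 16 libraries in turn, with edgeR adjusted p up to 0.0388. The other 5 lost their call in 10 to 12 of the 16 leave-outs, with edgeR adjusted p up to 0.0846 for Alpi, 0.0894 for Ugt1a1 and 0.0897 for Agr2 (each without 4OHT day 2 replicate 3), and 0.117 for Cdhr2 and 0.101 for Cdhr5 (each without 4OHT day 4 replicate 3).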

How the results depend on the processing

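Hnf4a at both days and Hnf4g at day 4 kept their call under all alternatives run, and none of the results recomputed, which cover both members and the named genes that passed, reversed. Exact tests with 1 library left out cannot go below 0.0571, nor sign flips of 4 pairs below 0.125, so these give values only. Other settings moved these results; the cause was not tested. Hnf4a in 4OHT over days passed with DESeq2 (-0.122) and with all 16 libraries (-0.122). Hnf4g in DMSO over days (-0.256) missed an adjusted p of 0.01, and missed 0.05 with library totals alone (-0.221). At an adjusted p below 0.01, 2976 genes were called at day 2, 2188 at day 4 and 28 for the interaction. Then 6 receptors fell at day 2 and 3 at day 4, 1 transcription factor rose and 1 fell at day 4, 1 coregulator rose at each day and 0 fell at day 2, and of targets 1 rose and 12 fell at day 2 and 6 rose at day 4. Shares of all genes by direction at that threshold are not given here, so these counts are no result about the lists. With the replicate block, 7216 genes were called at day 4 and 1850 for the interaction, 847 with DESeq2; 13 receptors fell at day 4, 5 transcription factors fell at day 2, 8 rose and 6 fell at day 4, 0 coregulators fell at day 2 and 5 at day 4, and 16 targets rose at day 4. With the block, 22.2% of all genes fell and 22.8% rose at day 4, and the shares for day 2 are not given here. The blocked ratio was 1.56 on the log2 scale at day 4, and the block changed the call of neither paralog. With library totals alone 3 transcription factors rose at day 4, and with all 16 libraries 1 target rose at day 2.

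Leaving out 1 library, log2 fold changes of Hnf4g ran 0.142 to 0.305 at day 2, and -0.325 to -0.169 in DMSO over days. Genes called for the interaction ran 94 to 727. Receptors that fell at day 2 ran 8 to 17. Transcription factors that rose at day 4 ran 1 to 6 and those that fell 1 to 2. Coregulators that rose at day 2 ran 1 to 3, those that fell 0 to 1, and those that fell at day 4 1 to 2. Targets that rose at day 2 ran 1 to 3 and those that fell 14 to 26. Shares of all genes by direction are not given for these fits, so the counts show only how far each one moves.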
